A study of Mus musculus with 12 samples.

Results

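The expression of 10 immediate early genes was followed in the mouse retina: Egr1, the Fos family members Fos, Fosb and Fosl2, the Jun family members Jun, Junb and Jund, and Ier2, Nr4a1 and Dusp1. The rows were picked by gene symbol from a table of 35976 genes, of which 24484 had at least 1 read in the 12 libraries, and all 10 genes had reads in every library. The genes were chosen with earlier results of these data known. The change of Egr1 in oxygen-induced retinopathy (OIR), which went in opposite directions in the 2 genotypes, was among the values that chose them, so the OIR changes of the 10 genes are given as a description, without a test.

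Immediate early genes are transcribed soon after a cell receives a signal, from growth factors, cytokines, neuronal activity or stress, because the factors that act on their promoters are already in place. Many of them encode transcription factors. Fos and Jun proteins pair through leucine zippers to form AP-1, Egr1 and Nr4a1 bind DNA through zinc fingers, and Dusp1 is a phosphatase that switches the upstream MAP kinases off again. In the retina these genes are known for their response to light, injury and ischaemia, in neurons as well as in Müller glia and vessels, and they also respond to the handling of tissue.

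The libraries form 4 groups of 3. The retinas came from C57BL/6 mice, here WT, and from mice labelled Caspase1 knockout, here Casp1 KO. Caspase-1 is a protease of the inflammasome, and its loss in these mice is known from the label only. In the OIR model described by the study, C57BL/6 pups breathed 75% oxygen from day 7 to day 12 after birth and then room air for 3 days, so that the retina, having lost vessels in hyperoxia, was relatively hypoxic at day 15, and the normoxia groups stayed in room air. The age and oxygen schedule of the Casp1 KO mice, the part of the gene that was targeted and the number of animals behind a library were not given in the sources used here. Nothing says that the replicates of a group were separate animals, and the p-values therefore measure the spread between these libraries.

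Reads were 3' tags of polyadenylated RNA, and levels are given as CPM, the usual library-scaled read count, after TMM scaling over the 12 libraries. The totals ran from 3391203 to 22815830 reads, and 3 reads, the limit that a count of 0 allows, correspond to 0.134 to 0.871 CPM for counting error only. Casp1 itself went against the labels. The 6 libraries labelled WT held 7 Casp1 reads in all, with 0 to 3 in each, and the 6 labelled Casp1 KO held 126, with 10 to 45 in each. Reads from an undeleted 3' end would not test the knockout, and why the WT libraries held fewer Casp1 reads was not tested. The conflict is therefore unresolved. "WT" and "Casp1 KO" stand for the labels throughout, and every direction drawn between genotypes would turn if they were exchanged. Replicate 3 of the WT OIR group stood apart from its group mates, and the chi-square of their counts, divided by its degrees of freedom, was 14.03 and 13.2 against them but 5.15 between the other two. Rod markers, which define retina, were detected in all libraries and summed over 8 genes to between 37679 and 45144 CPM.

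The promoters of Fos, Junb and Nr4a1 are shown because these genes carry much of the comparisons that follow and because all 3 windows hold TGACG, the core letters of the cAMP response element bound by CREB. Each line gives the 250 bases before the RefSeq start site in build GRCm38.p6, 5' to 3' on the gene's strand, at chr12:85473640-85473889 on the plus strand for Fos, chr8:84978749-84978998 on the minus strand for Junb and chr15:101266596-101266845 on the plus strand for Nr4a1. The Nr4a1 window lies inside the gene as GENCODE draws it, whose first annotated start is further upstream. Capitals mark TGACG, or CGTCA where the match is on the other strand.
Fos: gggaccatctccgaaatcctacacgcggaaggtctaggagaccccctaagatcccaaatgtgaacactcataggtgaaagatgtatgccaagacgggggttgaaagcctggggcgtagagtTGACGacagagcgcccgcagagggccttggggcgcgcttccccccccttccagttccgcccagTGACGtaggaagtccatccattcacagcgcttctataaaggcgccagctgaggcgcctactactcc
Junb: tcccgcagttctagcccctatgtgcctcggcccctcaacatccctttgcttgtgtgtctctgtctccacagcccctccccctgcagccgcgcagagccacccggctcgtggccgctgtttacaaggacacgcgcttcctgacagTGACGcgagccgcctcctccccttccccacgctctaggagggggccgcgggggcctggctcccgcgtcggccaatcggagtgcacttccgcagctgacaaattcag
Nr4a1: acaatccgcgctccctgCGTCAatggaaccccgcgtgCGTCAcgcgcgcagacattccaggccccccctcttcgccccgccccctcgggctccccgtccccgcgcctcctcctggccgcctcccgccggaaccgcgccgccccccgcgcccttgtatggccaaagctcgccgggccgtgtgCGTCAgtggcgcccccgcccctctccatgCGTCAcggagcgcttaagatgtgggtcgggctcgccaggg

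TGACG occurred 2 times in the window of Fos, 1 time in that of Junb and 4 times in that of Nr4a1. Over 300 bases, 250 before to 50 after the start, 8 of the 10 genes had a promoter in the table used, all except Egr1 and Ier2. On either strand, TGACG was present in 5 of these 8 (Fos, Fosb, Junb, Nr4a1 and Dusp1) and in 20.8% of all 32851 promoters. The full element TGACGTCA, which contains these letters, was present in 1 of 8 (Dusp1) and in 1.79% of all promoters. GCGNGGGCG, the letters bound by EGR proteins, was present in 3 of 8 (Fosb, Fosl2 and Nr4a1) and in 5.55% of all. The AP-1 letters TGANTCA were found in 0 of 8, against 7.81% of all, and the CArG box bound by serum response factor in 0 of 8, against 1.63%. These are matches of letters in a short window and describe no binding.

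Of the 10 genes, Egr1 was the only member whose 4 groups did not overlap at any step of their order. The opposite OIR changes for which Egr1 was chosen enter this order. The share of all genes with such steps was not computed, so these counts are a description. It was lowest in Casp1 KO normoxia, then WT OIR, then Casp1 KO OIR, and highest in WT normoxia, and the highest mean was 2.29 times the lowest. Junb, Jund and Fosb each had 1 step without overlap between neighbouring groups, and the other 6 genes had none. By its mean, Casp1 KO normoxia was the lowest group for 8 of the 10 genes, all except Fosb and Nr4a1. Among these 8 it overlapped the next higher group in each gene except Egr1, and the share over all genes was not computed. Summed over the 10 genes, the level lay between 280 and 302 CPM in Casp1 KO normoxia, 386 and 435 in WT OIR, 412 and 455 in WT normoxia, and 474 and 508 in Casp1 KO OIR. In whole retina, fewer cells that carry a transcript and less of it per cell cannot be told apart.

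**Figure D1:**
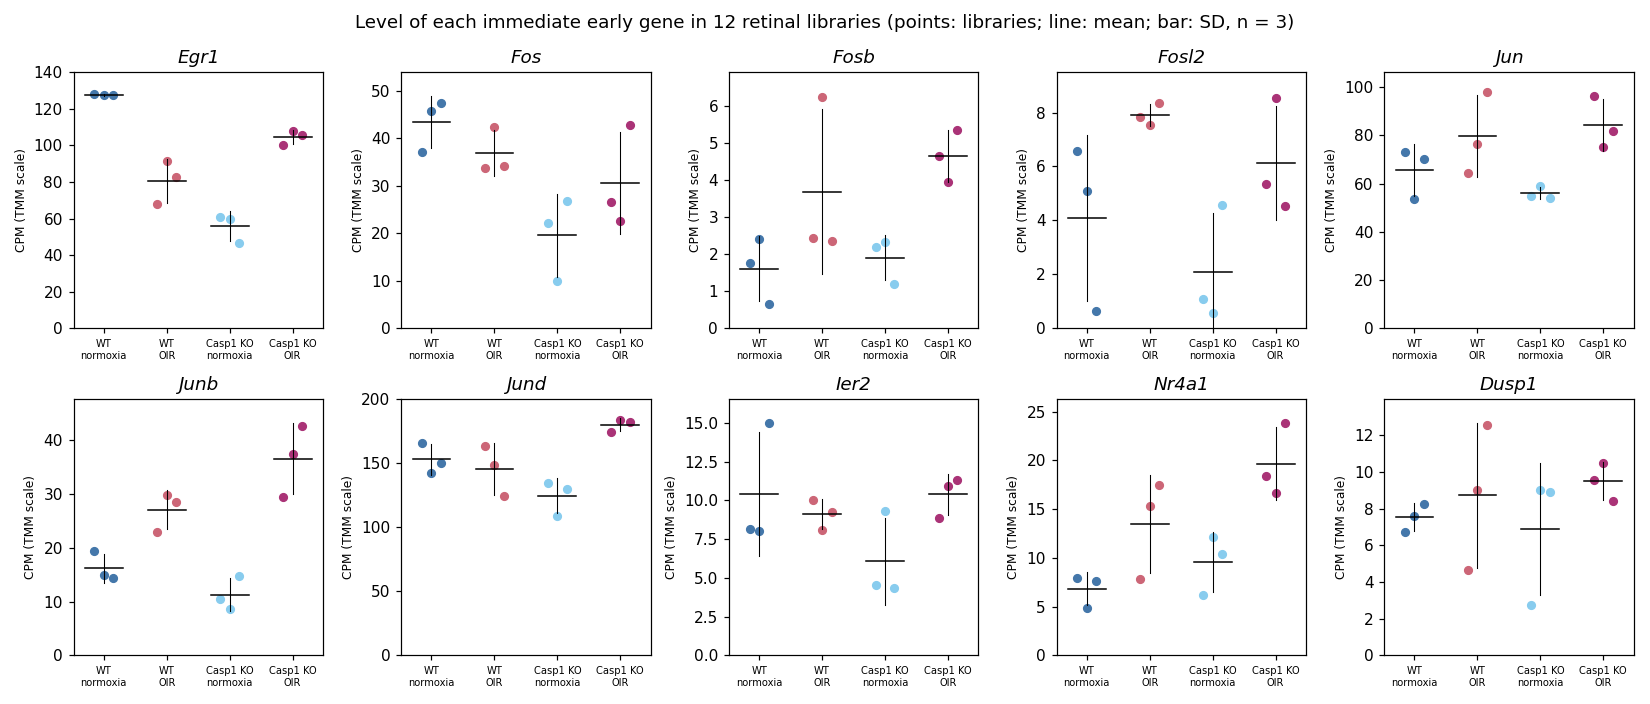
Level of each of the 10 genes in CPM on the TMM scale, on an axis that starts at 0, in the 4 groups (points are libraries, horizontal lines means, vertical bars SD, n = 3). Egr1 runs from 46.4 to 128 CPM with no overlap between groups, whereas Fos, Ier2 and Dusp1 have groups whose points overlap with those of their neighbours.

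Egr1 encodes a zinc finger transcription factor that acts downstream of ERK and serum response factor. The gene lies on chromosome 18 between 34859823 and 34864984 on the plus strand of GRCm38, with 2 exons, and no other annotated gene overlaps it. In WT normoxia the 3 libraries were close to each other, at 128, 128 and 127 CPM (128 ± 0.44, SD, n = 3), although the deepest held 2866 Egr1 reads and the shallowest 586. Counting error of 586 reads alone exceeds this SD, so the SD understates the uncertainty of this level. In WT OIR replicates 1 to 3 stood at 67.8, 91.5 and 82.7 CPM (80.7 ± 11.96), all below every normoxia library. In Casp1 KO normoxia they stood at 61.1, 59.8 and 46.4 CPM (55.8 ± 8.16), and in Casp1 KO OIR at 100.3, 108 and 106 CPM (104.7 ± 3.95), all above every normoxia library of that label. The fitted OIR change was -0.67 ± 0.15 (log2, SE) in WT, a fold of 0.628, and 0.92 ± 0.13 in Casp1 KO, a fold of 1.89. The difference of these changes was 1.57 ± 0.20, and without the WT OIR library that stood apart it was 1.58. An OIR level below normoxia in WT and above it in Casp1 KO, without overlap in either, was found for 96 of the 24484 genes, or 0.392%. These values chose the gene and carry no test.

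The Fos family gives AP-1 its Fos partner, and Fos itself is the classical early response gene. Fos lies on chromosome 12 between 85473890 and 85477273, plus strand, with 4 exons. Fos levels were 37.1, 45.7 and 47.4 CPM in WT normoxia (43.4 ± 5.51) and 33.8, 42.3 and 34.2 CPM in WT OIR (36.8 ± 4.83), with overlapping groups and a change of -0.25 ± 0.20. In Casp1 KO they were 22.1, 9.88 and 26.8 CPM in normoxia (19.6 ± 8.73) and 26.5, 22.6 and 42.8 CPM in OIR (30.6 ± 10.7), again overlapping, with a change of 0.64 ± 0.22 that ran from 0.31 without OIR replicate 3 to 0.91 without normoxia replicate 3. Replicate 3 of Casp1 KO OIR lay within the range of the WT libraries and the other two replicates lay below it.

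Fosb, on chromosome 7 between 19302696 and 19310051 on the minus strand, and Fosl2, which encodes the slower and more lasting Fra-2, on chromosome 5 between 32135801 and 32157842 on the plus strand, were scarce. Fosb had 3 to 54 reads per library and Fosl2 2 to 114. Fosb stood at 1.78, 2.40 and 0.652 CPM in WT normoxia and 2.45, 6.26 and 2.36 in WT OIR, where only replicate 2 was clearly higher. In Casp1 KO the groups did not overlap, at 2.19, 2.32 and 1.21 CPM in normoxia and 4.67, 3.94 and 5.35 in OIR. Fosl2 stood at 6.57, 5.07 and 0.652 CPM in WT normoxia and 7.84, 7.55 and 8.36 in WT OIR, without overlap. In Casp1 KO it stood at 1.09, 0.581 and 4.59 CPM in normoxia and 5.34, 8.54 and 4.52 in OIR, where the highest normoxia library just exceeded the lowest OIR library. The fitted OIR changes of Fosb were 1.12 ± 0.74 in WT and 1.29 ± 0.66 in Casp1 KO, and those of Fosl2 were 0.89 ± 0.47 and 1.56 ± 0.59, with large errors in each case. Single libraries moved these values: on leaving out each in turn, Fosb ranged from 0.52 (without WT OIR replicate 2) to 1.56 in WT and from 1.055 to 1.42 in Casp1 KO. Fosl2 ranged from 0.45 (without WT normoxia replicate 3) to 1.29 in WT and from 1.15 to 2.79 (without Casp1 KO normoxia replicate 3) in Casp1 KO.

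The Jun family supplies the other partner of AP-1, with Jun the strongest activator, Junb a weaker activator that can restrain Jun, and Jund a member that is present without a stimulus in most cells. Junb, on chromosome 8 between 84974484 and 84978718 on the minus strand and with a single exon, stood at 19.4, 14.95 and 14.4 CPM in WT normoxia (16.2 ± 2.73) and 23.02, 29.8 and 28.5 in WT OIR (27.1 ± 3.61). In Casp1 KO it stood at 10.6, 8.71 and 14.7 CPM in normoxia (11.3 ± 3.08) and 29.6, 37.4 and 42.8 in OIR (36.6 ± 6.64). All OIR libraries were above all normoxia libraries in each genotype, and across genotypes too. The change was 0.74 ± 0.25 in WT and 1.70 ± 0.24 in Casp1 KO, the latter the largest of the 10 in Casp1 KO. Prdx2 overlaps Junb on the other strand, and as the strand setting of the counting was not given, its reads may be part of these counts.

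Jun, a single exon on chromosome 4 between 95049034 and 95052222 on the minus strand, stood at 73.2, 53.5 and 70.2 CPM in WT normoxia and 64.4, 76.4 and 98.1 in WT OIR, with overlapping groups. In Casp1 KO it stood at 55.1, 59.0 and 54.1 CPM in normoxia and 96.3, 75.1 and 81.7 in OIR, with every OIR library higher. The changes were 0.28 ± 0.16 and 0.60 ± 0.14. Without WT OIR replicate 3, the highest library of Jun, the WT change was 0.11. The antisense gene Junos overlaps Jun, with the same uncertainty over strand.

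Jund, a single exon on chromosome 8 between 70698949 and 70700616 on the plus strand that Gm11175 overlaps on the other strand, had the smallest fitted change of the 10 genes in WT. It stood at 166, 143 and 150.5 CPM in WT normoxia (153 ± 11.8) and 164, 149 and 124 in WT OIR (146 ± 20.1), and its fitted change was -0.08 ± 0.14. In Casp1 KO it stood at 135, 109 and 130.2 CPM in normoxia (125 ± 13.6) and 174, 184 and 182 in OIR (179.9 ± 5.06), with every OIR library higher and a change of 0.54 ± 0.10. The Casp1 KO OIR libraries were also above all libraries of the other 3 groups.

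Nr4a1 encodes the orphan nuclear receptor Nur77. The gene lies on chromosome 15 between 101254269 and 101274795, plus strand, with 8 exons. Nr4a1 stood at 7.99, 4.90 and 7.61 CPM in WT normoxia and 7.84, 15.3 and 17.4 in WT OIR, where replicate 1 stayed within the normoxia range. In Casp1 KO it stood at 6.20, 12.2 and 10.4 CPM in normoxia and 18.5, 16.6 and 23.9 in OIR, without overlap. The fitted change was 1.01 ± 0.36 in WT and 1.07 ± 0.30 in Casp1 KO, and the difference in the fit of all 12 libraries was 0.02 ± 0.49.

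Ier2, a nuclear protein gene with a single exon on chromosome 8 between 84661331 and 84662852, minus strand, stood at 8.17, 8.01 and 15.003 CPM in WT normoxia, 10.04, 8.10 and 9.27 in WT OIR, 4.56, 9.30 and 4.35 in Casp1 KO normoxia and 8.89, 10.9 and 11.3 in Casp1 KO OIR. Groups overlapped in each genotype, and the changes were -0.18 ± 0.37 in WT and 0.81 ± 0.40 in Casp1 KO. Dusp1, whose annotated span on chromosome 17 from 26505590 to 26562128, minus strand, overlaps several other genes on both strands, stood at 6.75, 7.61 and 8.26 CPM in WT normoxia and 4.65, 9.02 and 12.5 in WT OIR. In Casp1 KO it stood at 2.73, 9.01 and 8.94 CPM in normoxia and 9.56, 10.5 and 8.43 in OIR. Its changes of 0.22 ± 0.40 and 0.51 ± 0.40 had errors of similar size, and the groups overlapped in both genotypes.

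Taken by direction, 10 of the 10 genes had a fitted OIR change above 0 in Casp1 KO and 6 of 10 in WT. Their median change was 0.87 in Casp1 KO, where the median over all genes tested was -0.002, and 0.25 in WT, where it was 0.04. In WT, Egr1 was the only 1 of 10 with an adjusted p under 0.05 by edgeR's quasi-likelihood test with Benjamini-Hochberg adjustment, against 3.88% of all genes, and 3 of 10 (Egr1 lower, Fosl2 and Junb higher) had groups that did not overlap, against 16.7%. In Casp1 KO, 5 of 10 (Egr1, Jun, Junb, Jund and Nr4a1) were past the threshold and higher, against 2.61% of all genes, and 6 of 10, these and Fosb, had every OIR library above every normoxia library, against 8.56%. In the fit for the difference between the 2 changes, Egr1 was 1 of 10 past the threshold with a larger change in Casp1 KO, against 0.604% of all genes. The difference was above 0 for 10 of 10, with a median of 0.62 against -0.04 over all genes, and it was 0.97 for Ier2, 0.94 ± 0.35 for Junb, 0.87 ± 0.29 for Fos and 0.64 ± 0.75 for Fosl2. Their order depends on single libraries, as without Casp1 KO normoxia replicate 3 the difference of Fosl2 was 1.87 and without replicate 2 that of Ier2 was 1.38. On leaving out 1 library the difference turned below 0 for Fosb (down to -0.28), Nr4a1 (-0.25) and Dusp1 (-0.15), and the WT change turned sign for Jund (up to 0.02), Ier2 (up to 0.16) and Dusp1 (down to -0.13). Nothing is read from these counts, as the rule used the same contrasts, and the 2 OIR changes enter the difference directly.

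**Figure D2:**
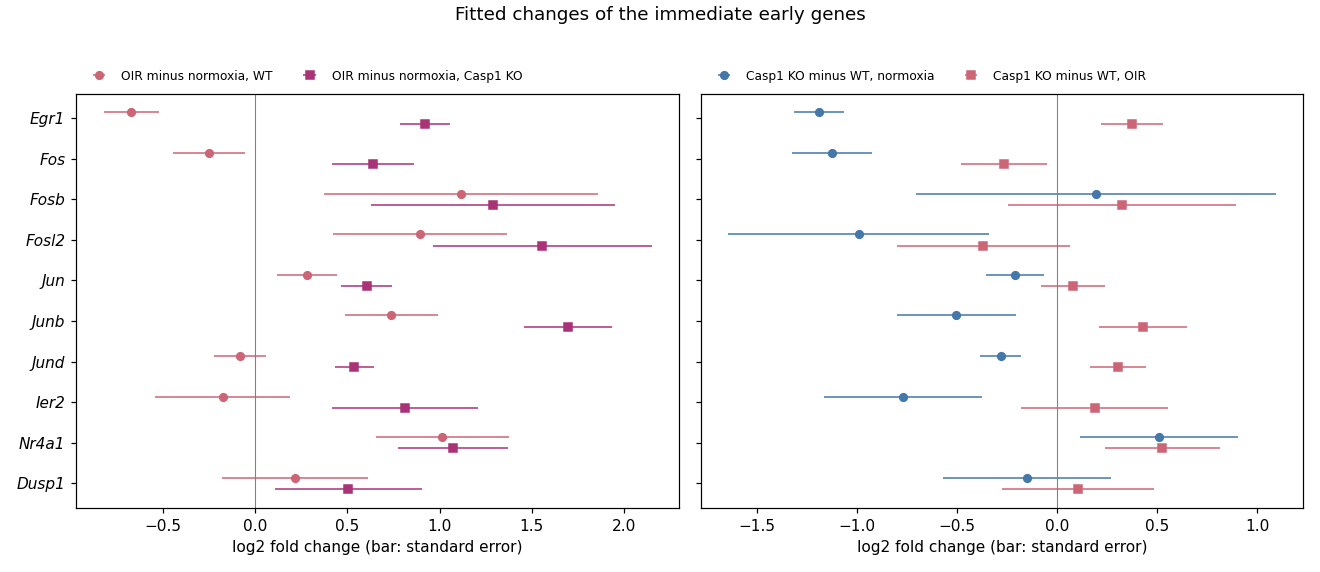
Fitted log2 fold changes (points) with standard errors (bars) of the 10 genes, for OIR minus normoxia in each genotype (left) and Casp1 KO minus WT in each condition (right). On the left, all 10 Casp1 KO points lie to the right of 0 while Egr1 is at -0.67 in WT, and on the right Egr1 and Fos lie at -1.19 and -1.12 in normoxia.

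The genotype contrasts were not named by the rule, and the 9 genes other than Egr1 were tested in them, on libraries that also enter the OIR changes. In normoxia, Fos was lower in the libraries labelled Casp1 KO, all 3 of which lay below all 3 WT libraries. The change was -1.12 ± 0.20, with an adjusted p of 8.63e-06 by edgeR's quasi-likelihood test over all genes. The call held in 10 of 11 alternatives, with adjusted p-values from 4.55e-06 to 0.0997, the latter from DESeq2, and an exact two-sided permutation test of 3 against 3 libraries gave 0.1, the smallest it can give. Jund was lower in all 3 Casp1 KO libraries as well, by a change of -0.28 ± 0.10 that did not pass (adjusted p = 0.245, edgeR). The changes of the other 7 genes ranged from -0.99 ± 0.65 for Fosl2 to 0.51 ± 0.40 for Nr4a1, with edgeR adjusted p-values from 0.587 to 0.965. Egr1, which is given as a description, differed by -1.19 ± 0.13. Of the 9 genes tested, only Fos was past the threshold, where 0.56% of all genes were past it and lower. Only Fos and Jund of the 9 were lower without overlap, against 6.53% of all genes. Egr1, past the threshold and without overlap too, is not counted, as the rule chose it on some of the same libraries.

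In OIR, 0 of the 10 genes passed the threshold in edgeR, where 0.575% of all genes did in either direction. At an unadjusted p under 0.05 there were 2 of 10, against 1904 of 22774 genes, and DESeq2 also called 0. Jund, by 0.31 ± 0.14 (adjusted p = 0.492, edgeR; exact permutation p = 0.1), and Egr1, by 0.37 ± 0.16, stood higher in all 3 Casp1 KO libraries than in all 3 WT libraries, and groups that were higher without overlap made up 5.41% of all genes. Junb differed by 0.43 ± 0.22 (adjusted p = 0.601, edgeR), Nr4a1 by 0.53 ± 0.29 (0.639) and Fos by -0.26 ± 0.21 (0.741). Thus Fos was lower in Casp1 KO normoxia, and at this depth no difference of Fos was detected between the OIR groups. The difference between these genotype changes is the same quantity as the difference between the OIR changes, given above for Fos as 0.87, and was not tested for the reason stated there.

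Other genes of the same pathway were taken from 6 lists of 104 genes in all, and these genes were tested. The lists too were chosen with earlier results of these data known, so their counts of called genes are no independent support. In WT, 2 of 100 tested list genes rose in OIR and 3 fell, where 3.88% of all genes passed in either direction. Cebpd, a bZIP factor induced by cytokines and part of the list of 20 other immediate early transcription factors, rose from 6.52 ± 1.90 to 31.2 ± 9.29 CPM, a log2 change of 2.26 ± 0.28 (adjusted p = 1.54e-12, edgeR), and was the 1 gene of 19 tested in its list that rose. Among 26 immediate early effectors, Trib1, a pseudokinase that marks C/EBP proteins for degradation, rose by 0.48 ± 0.13 (adjusted p = 0.0125, edgeR) and Vgf, a neuropeptide precursor, fell by 1.48 ± 0.37 on the log2 scale (0.00405). Trib1 stood at 347 CPM in WT OIR replicate 3 and at 213 and 203 in the other two. Of 20 upstream kinases and promoter factors, Mapk10, the mainly neuronal kinase JNK3, fell by 0.78 ± 0.15 (adjusted p = 1.98e-05, edgeR) and Elk4, a partner of serum response factor, by 1.15 ± 0.34 (0.0233). In edgeR and in DESeq2, 0 of 11 AP-1 partners and EGR corepressors, 0 of 14 ERK feedback regulators and 0 of 10 genes of the VCAM-1 and IL-33 axis passed, with 4, 0 and 0 at an unadjusted p under 0.05. Over all genes, 2877 of 22853 had an unadjusted p under 0.05. Of the axis, Cxcl1, Cxcl2 and Sele, named here for their few reads, had 0 reads in WT normoxia. In WT OIR replicates 1 to 3, Cxcl1 had 3, 0 and 0 reads, Cxcl2 0, 6 and 0, and Sele 0, 2 and 2. Genes this scarce could hardly pass, so the axis count says little about them. The calls of Cebpd and Mapk10 held in 11 of 11 alternatives, that of Elk4 in 7, Vgf in 6 and Trib1 in 4. On leaving out a library, Trib1 did not pass without WT normoxia replicate 1 (0.47), 2 (0.49) or 3 (0.47) or WT OIR replicate 3 (0.19). Vgf did not pass without WT normoxia replicate 1 (-1.34) or WT OIR replicate 1 (-1.22) or 3 (-1.11), and Elk4 without WT normoxia replicate 1 (-0.77) or WT OIR replicate 3 (-0.86).

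In Casp1 KO, 13 of 102 tested list genes rose in OIR and 1 fell, where 2.61% of all genes rose. Cebpd rose from 7.20 ± 0.55 to 34.3 ± 8.75 CPM, by 2.27 ± 0.27 (adjusted p = 6.55e-15, edgeR), which is close to its change in WT. Bhlhe40, a repressor known to respond to hypoxia, rose by 1.12 ± 0.33 (adjusted p = 0.0226) and Maff, a small Maf protein with only 2 to 4 reads in each normoxia library, by 2.69 ± 0.82 (0.0272), making 3 of 19 other immediate early transcription factors. Of 26 effectors, 6 rose, among them Ier3, a stress-induced survival gene (0.65 ± 0.094, adjusted p = 1.30e-09), Sgk1, a kinase induced by serum and glucocorticoids (1.09 ± 0.18, 2.46e-07), Ctgf, a matrix protein gene (1.57 ± 0.28, 2.22e-06), and Rgs2, which limits G protein signals (0.45 ± 0.11, 0.00109). The calls of Cebpd, Ier3 and Sgk1 held in 11 of 11 alternatives, those of Ctgf and Rgs2 in 10, Bhlhe40 in 7 and Maff in 6. The changes that did not pass when a library was left out were those of Ctgf without OIR replicate 3 (1.01), Rgs2 without OIR replicate 2 (0.31), Bhlhe40 without normoxia replicate 1 (0.83) or OIR replicate 1 (0.78), and Maff without normoxia replicate 1 (2.73) or 3 (2.50) or OIR replicate 2 (2.26).

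The 2 of 15 ERK feedback regulators that rose in Casp1 KO were Dusp8, a phosphatase of JNK and p38 (0.35 ± 0.091, adjusted p = 0.00501, edgeR), and Spry2, an inhibitor of receptor tyrosine kinase signalling (0.38 ± 0.10, 0.00961). Of 12 AP-1 partners and EGR corepressors, Nrl rose by 0.40 ± 0.060 (9.57e-09). Nrl is the rod-determining member of the Maf family and also 1 of the 8 rod markers, of which 3 rose and 1 fell in this comparison. Nfkbia, the inhibitor of NF-kB, was the only 1 of 10 tested genes of the VCAM-1 and IL-33 axis to rise (0.75 ± 0.12, adjusted p = 1.26e-08), and Mapk10 fell here too, by 0.49 ± 0.12 (0.0019). Cxcl1 of this axis had 0 reads in the Casp1 KO libraries and was not tested there. Cxcl2 had 0 reads in Casp1 KO normoxia and 0, 0 and 2 in Casp1 KO OIR, so it could hardly pass. The calls of Nrl and Nfkbia held in 11 of 11 alternatives, that of Mapk10 in 10 and those of Dusp8 and Spry2 in 8. When a library was left out, Mapk10 did not pass without normoxia replicate 1 (-0.40), Dusp8 without normoxia replicate 2 (0.32) or 3 (0.32), and Spry2 without normoxia replicate 1 (0.34) or OIR replicate 2 (0.33). Vcam1 and Il33, whose proteins the study follows, are given although they passed no test: Vcam1 differed by -0.23 ± 0.32 in WT and -0.07 ± 0.30 in Casp1 KO, and Il33 by -0.19 ± 0.24 and 0.23 ± 0.23. In the libraries of both genotypes ganglion cell markers, summed over 8 genes, were lower in OIR, at 1324 to 1660 CPM against 2695 to 2904 in WT normoxia and at 1615 to 1660 against 2937 to 3160 in Casp1 KO normoxia, with 6 of 8 and 5 of 8 past the threshold. Reactive glia markers were higher, at 245 to 285 against 104 to 114 CPM and at 257 to 277 against 92.4 to 109 CPM, with 6 of 8 past it in each. Their part in the changes of Mapk10, Vgf and Cebpd was not tested.

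**Figure D3:**
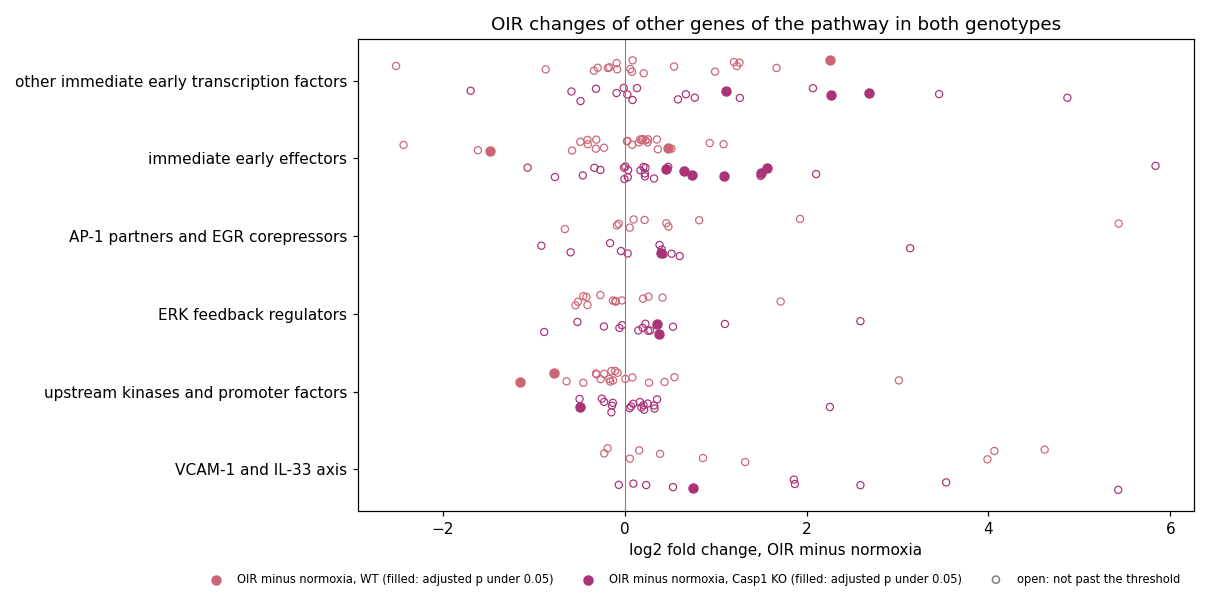
Log2 fold changes, OIR minus normoxia, of every tested gene of the 6 pathway lists in WT and Casp1 KO, where filled points have an adjusted p under 0.05 by edgeR. Filled points number 5 in WT, on both sides of 0, and 14 in Casp1 KO, of which 13 lie to the right of 0.

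None of the list genes passed the test of the difference between the OIR changes in edgeR (0 of 103, and 1 in DESeq2). At an unadjusted p under 0.05 there were 10 of 103, against 2392 of 24484 genes. The larger number of risen genes in Casp1 KO is therefore not a tested difference between genotypes. Without WT OIR replicate 3, which stood apart, 5 list genes passed. Between the genotypes in normoxia 0 of 97 passed (11 unadjusted, against 1939 of 22480 genes, and 2 in DESeq2). In OIR 0 of 103 passed (10 unadjusted, against 1904 of 22774 genes, and 0 in DESeq2), or 7 without WT OIR replicate 3. The closest relatives of Egr1, named here after their values were seen, were scarce: Egr2 had 1 to 31 reads per library, Egr3 0 to 13 and Egr4 0 to 6. Fosl1, the remaining Fos family gene, had 0 reads in all 12 libraries, where 3 reads would be at most 0.871 CPM.

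Over the 12 libraries, the level of Egr1 moved most like that of Prox1, a homeobox gene of horizontal cells, Müller glia and lymphatic vessels. The likeness was Pearson's r of log2 CPM over 14286 genes, given as a description, since all points share libraries and 4 groups. It was 0.90 for Prox1, 0.88 for Ip6k2, 0.87 for Ptprt, 0.86 for Ptprf and 0.86 for Fat4. Prox1 followed the order of Egr1 at its ends, with 273 ± 15.7 CPM in WT normoxia and 166 ± 8.03 in Casp1 KO normoxia, while its 2 OIR groups overlapped at 232 ± 8.50 and 233 ± 13.7. Its r ranged from 0.85 to 0.96 on leaving out any 1 library and was 0.79 without the 2 libraries farthest in Egr1. The deviations of Prox1 and Egr1 from their group means had an r of only 0.10, so the likeness lay between the groups, whereas those of Fat4 had 0.79 and those of Ptprf 0.74. The lowest values were -0.87 for Bicd2, -0.85 for 4930555F03Rik and -0.85 for Gm38609.

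The other 9 immediate early genes were not among the genes most like Egr1. Ier2 had the highest r with 0.65, at rank 221 of 14286, then Fos with 0.60 (rank 378) and Jund with 0.59 (rank 400). Jun and Junb had 0.41 each, Dusp1 0.27, Fosl2 0.20, Fosb 0.13 and Nr4a1 0.01, near the middle of all genes at rank 7168. Among themselves the members were most alike in the pairs Fosl2 and Junb (0.76), Jun and Nr4a1 (0.75) and Jun and Junb (0.75). In Jun and Nr4a1 the deviations from group means also ran together (0.70), and in Jun and Junb they did not (0.05).

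**Figure D4:**
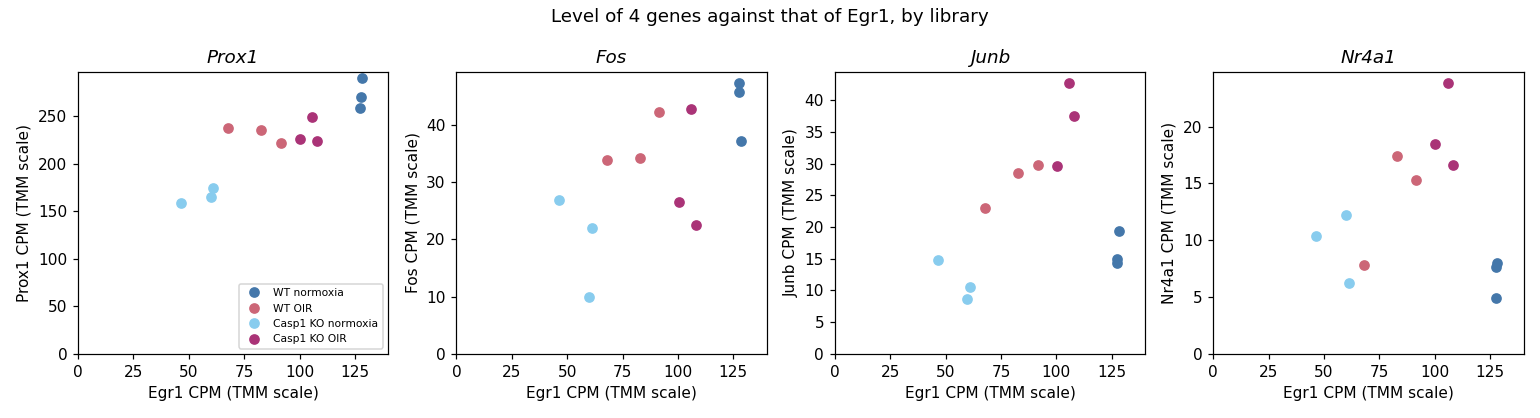
CPM of Prox1, Fos, Junb and Nr4a1 (vertical axes) against CPM of Egr1 (horizontal axes) in the 12 libraries, coloured by group, all axes starting at 0. Prox1 rises with Egr1 across the groups (r of log2 values 0.90), while for Junb and Nr4a1 the WT normoxia libraries, highest in Egr1 at 127 to 128 CPM, are among the lowest.

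Markers of Müller glia moved with Egr1. Summed over 8 genes, they lay between 2714 and 2798 CPM in WT normoxia, 2123 and 2225 in WT OIR, 1928 and 2074 in Casp1 KO normoxia and 2848 and 2883 in Casp1 KO OIR, with no marker at 0. In WT, 1 of the 8 rose in OIR and 3 fell, in Casp1 KO 6 rose and 0 fell, 4 had a larger change in Casp1 KO in the test of the difference, and in normoxia 5 were lower in Casp1 KO. Over all genes, 3.88% passed in WT in either direction and 2.61% rose in Casp1 KO. For the difference 0.604% had a larger change in Casp1 KO, and 0.56% were lower in Casp1 KO normoxia. In contrast with Egr1, the highest group of this list was Casp1 KO OIR. Amacrine cell markers fell in WT OIR, with 4 of 8 past the threshold and sums of 457 to 554 against 690 to 745 CPM, and did not pass in Casp1 KO (0 of 8 in edgeR and in DESeq2, 2 at an unadjusted p under 0.05, 582 to 626 against 543 to 618 CPM). Retinal pigment epithelium and lens markers were highest in Casp1 KO OIR, at 1119 to 1209 and 580 to 670 CPM, with 4 of 8 of each list past the threshold, where the other groups lay between 678 and 820 and between 217 and 459 CPM. The part of these cell types in the change of Egr1 or of the other members was not tested.

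Of 8 transcripts retained in the nucleus, those past the threshold went opposite to the fitted change of Egr1. In WT OIR 1 of 8 rose. In the test of the difference 4 of 8 had a lower change in Casp1 KO (1 in DESeq2), against 129 of 24484 genes. Between genotypes 3 of 8 were higher in Casp1 KO in normoxia, against 107 of 22480 genes. In OIR 4 of 8 were lower in Casp1 KO (1 in DESeq2), against 71 of 22774. Their part in the change of Egr1 was not tested. The sum of 8 nuclear transcripts was 9885 to 10384 CPM in WT normoxia, 10912 to 11960 in Casp1 KO normoxia and 6731 to 7520 in Casp1 KO OIR, with 4 of 8 lower in this last comparison. In WT OIR it was 12148, 13559 and, in replicate 3, 5970 CPM, so replicate 3 lay far below its mates, whereas in Egr1 its 82.7 CPM lay between their 67.8 and 91.5. Heat shock genes, summed over 10 genes, lay between 2926 and 3353 CPM in WT normoxia, 2954 and 3732 in WT OIR, 2969 and 3278 in Casp1 KO normoxia and 2636 and 2872 in Casp1 KO OIR, and 1 of 10 rose in Casp1 KO OIR while 0 of 10 passed in WT in edgeR or DESeq2 (2 at an unadjusted p under 0.05). Blood markers were unequal within WT OIR, at 278, 398 and 92.3 CPM, against 122 to 167 CPM in the other groups.

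**Figure D5:**
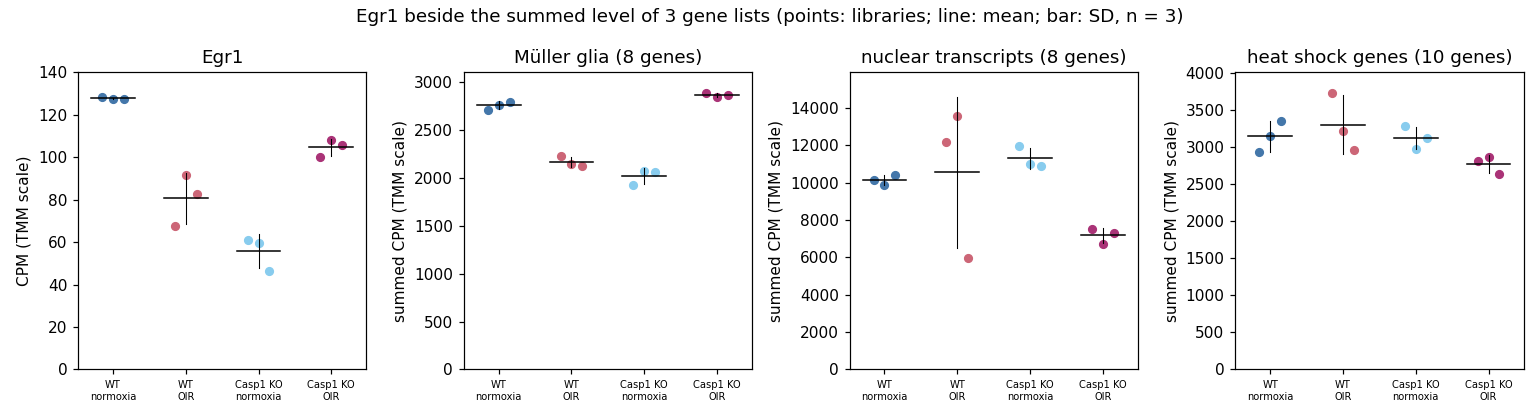
Egr1 in CPM and the summed CPM of 8 Müller glia markers, 8 nuclear transcripts and 10 heat shock genes in the 4 groups, with axes from 0 (points are libraries, horizontal lines means, vertical bars SD, n = 3). The Müller glia sum falls in WT OIR to 2123 to 2225 CPM and stands at 2848 to 2883 in Casp1 KO OIR, as Egr1 does in direction, while the nuclear transcripts split the WT OIR libraries.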

How the data were processed

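The authors prepared QuantSeq 3' mRNA libraries from TRIZOL-extracted retinal RNA. The submitters' processing notes name STAR 2.7.5a, HTSeq 0.6.1, edgeR and mm10, whereas annotation and strand setting are not given in the sources used here. The deposited values are raw read counts per gene without molecular identifiers, 3391203 to 22815830 per library. Every gene with a count of 1 or more among the fitted libraries was tested with the quasi-likelihood test of edgeR 4.0.16 in R 4.3.3 (TMM, Benjamini-Hochberg adjustment over all genes tested, threshold 0.05), each 2-group contrast on its own 6 libraries and the difference of OIR changes on all 12. Fold changes used a prior count of 0.125 and log2 CPM one of 2. The SE was taken from the fold change and its F statistic. The fit was run on simulated counts, with changes set in the more abundant genes only. For the difference it recovered 41% of log2 changes of 1 and 78% of those of 2. For OIR in WT it recovered 62% and 87%, and between genotypes in normoxia 70% and 91%. A gene that did not pass may thus have changed. Alternatives were DESeq2 1.42.0 (adjusted p-values it gave as NA stayed missing) and its size factors, filterByExpr, a replicate block, 1 fit of all libraries, a prior count of 0.5 for correlations, and leaving out each library. The members and all gene lists were chosen with earlier results of these data known. Named are the 10 members, Casp1, in each list at most 4 genes per direction with an adjusted p under 0.05, and the 5 genes most and 3 least like Egr1, and the text says where a gene was added. Gene coordinates are from GENCODE vM21 (GRCm38) and promoters from RefSeq (GRCm38.p6). Same-numbered libraries did not deviate together (r from -0.028 to 0.035 in 12 comparisons), so no pairing by number was seen. Counting error enters these values, and a weak pairing could be missed.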

Additional observations from a re-analysis of the deposited data

Results flagged for a closer look

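Egr1 had an OIR change in Casp1 KO that exceeded its change in WT by 1.57 on the log2 scale in edgeR's fit of all 12 libraries. Every Egr1 library of OIR lay below normoxia in WT and above it in Casp1 KO. Opposite directions in the 2 genotypes drew attention to it. Since the gene was chosen for this pattern, the value is a description, with no test. The groups of 3 libraries were not tested for outlying samples, beyond the comparison of replicates given above, in which WT OIR replicate 3 stood apart.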

How the results depend on the processing

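As a description, the OIR change of Egr1 ranged from -0.77 to -0.57 in WT over 11 alternatives and from 0.81 to 0.99 in Casp1 KO over 11, and the difference from 1.45 to 1.67 over 16. The genes called in WT were 886, and 586 with filterByExpr and 545 to 1130 without 1 library. In Casp1 KO they were 1038, and 642 with all libraries in 1 fit. For the difference they were 277, and 139 with filterByExpr and 174 to 597 without 1 library, the highest without WT OIR replicate 3. Between genotypes in normoxia they were 233, and 453 with DESeq2, 109 with all libraries in 1 fit and 128 to 199 without 1 library. In OIR they were 131, and 82 with DESeq2, 16 with filterByExpr, 255 with all libraries in 1 fit and 47 to 815 without 1 library, the highest again without WT OIR replicate 3. The rule used the OIR contrasts, so the counts of members past the threshold in them are a description and no test. In WT they numbered 1 (3.88% of all genes passed), and 3 with all libraries in 1 fit (Junb and Nr4a1 added) and 1 to 2 without 1 library. In Casp1 KO they numbered 5 (2.61% of all genes rose), and 4 to 7 without 1 library. For the difference they numbered 1 (0.604% of all genes had a larger change in Casp1 KO), and 2 with DESeq2 (Jund added) and 1 to 2 without 1 library. Between genotypes in normoxia members past the threshold numbered 2, the chosen Egr1 and the tested Fos, and 1 with DESeq2. List genes called numbered 5 in WT, and 2 with filterByExpr, 8 with all libraries in 1 fit and 3 to 8 without 1 library. For the difference they numbered 0, and 1 with DESeq2 and 0 to 5 without 1 library, in normoxia 0, and 2 with DESeq2, and in OIR between genotypes 0, and 1 with all libraries in 1 fit and 0 to 7 without 1 library.

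The replicate block gave 2 list genes called between genotypes in OIR against 0 without it and moved no other count by over 1.5 times, and under it the calls of Trib1 in WT (adjusted p = 0.0658, edgeR) and Maff in Casp1 KO (0.0519) were lost. In the genotype contrasts, fold changes of uncalled members that turned sign were, in normoxia, Fosb (-0.14 without WT normoxia replicate 3, and -0.14 to 0.63 on leaving out each library) and Dusp1 (0.26 without Casp1 KO normoxia replicate 1, and -0.40 to 0.26), and, in OIR, Jun (-0.050 without WT OIR replicate 1 and -0.015 without Casp1 KO OIR replicate 1, and -0.050 to 0.27) and Dusp1 (-0.18 without WT OIR replicate 1, and -0.18 to 0.47). In the OIR changes and their difference, which were not tested for the members, sign turns of Jund, Ier2, Dusp1, Fosb and Nr4a1 are given in the text above. Of the tested single-gene values 35 lost a call, and of the untested ones 4 moved beyond the spread of replicates. Apart from settings with fewer genes or libraries, the cause was not tested. With 3 to 54 reads per library for Fosb and 2 to 114 for Fosl2, depth limits what can be said of these 2 genes.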
